A study of Danio rerio with 6 samples.

Results

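The Hairy and Enhancer-of-split genes of the zebrafish segmentation clock were compared between wild-type embryos and Pea3 triple mutants. The genes her1, her2, her7, her11, her12, her15.1, her15.2 and hes6 were chosen by symbol, and each symbol matched 1 entry, giving 8 of the 32057 genes listed in the deposited count matrix. All 8 passed the filter on low counts, among 18533 genes tested. The data are messenger RNA profiles of single whole zebrafish (Danio rerio) embryos at 10 somites (10ss), with 3 embryos labelled WT and 3 labelled 3etv. The 3etv embryos carry mutations in 3 genes of the Pea3 family, ETS transcription factors that act downstream of fibroblast growth factor (FGF) signalling, and the labels used here do not name the 3 genes. Clutch, parental line and strain background are not given, so that genotype cannot be told apart from any of these. The labels state that embryos were single, but not that they came from separate crosses, so p-values cover these 6 embryos only. The edgeR p-values set the difference between groups against the spread within groups, which the fit moderates using all tested genes.

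In vertebrate embryos, somites are cut from the presomitic mesoderm at regular intervals by a genetic oscillator. Her proteins are basic helix-loop-helix repressors that act as dimers, recruit Groucho corepressors and switch off their own genes, and the resulting delayed negative feedback gives cyclic expression. Delta and Notch signalling keeps neighbouring cells in step, and FGF signalling from the tailbud helps set where oscillations slow and stop. Waves of expression sweep through the tissue, so that one whole embryo sums over cells at many phases of the cycle. In a whole embryo, fewer presomitic cells and less RNA per cell cannot be told apart. Several of these genes are also expressed in the neural tube.

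Counts assigned to genes totalled between 22446699 and 28841169 in WT and between 18484238 and 21865288 in 3etv, so that each 3etv library was shallower than each WT library. Of these, the clock genes together held 7152 to 8327 in WT and 4141 to 4948 in 3etv. As a check of the labels, all 4 Pea3 genes lay lower in each 3etv embryo than in each WT embryo. etv5b, etv5a and etv1 had log2 fold changes of -1.69, -1.52 and -1.33 (edgeR adjusted p 1.89e-08, 1.82e-08 and 0.0082), and etv4 one of -0.52 that did not pass (adjusted p 0.057). Levels are given below as CPM, which puts libraries of different depth on one scale using TMM factors, and a gene was called at an adjusted p under 0.05 in edgeR's quasi-likelihood test over all tested genes. CPM does not correct for gene length, so levels are compared between embryos and not between genes.

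All 8 clock genes had a lower mean level in 3etv, and 5 of them fell by the test: her12, her7, her2, her1 and hes6. her11, her15.1 and her15.2 did not pass. Across the transcriptome, 31.3% of tested genes were called, 15.4% as lower and 15.9% as higher in 3etv. A log2 fold change below 0 was found for 49.6% of tested genes. The groups did not overlap for 45.1% of tested genes, with 3etv below WT for 22.4%. Among the clock genes the groups did not overlap for the same 5 genes that were called. The median log2 fold change of the 8 clock genes was -0.33, against 0.0035 over all tested genes. The 5 calls were unchanged when any 1 embryo was left out, while leaving out the third 3etv embryo added her15.1.

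**Figure D1:**
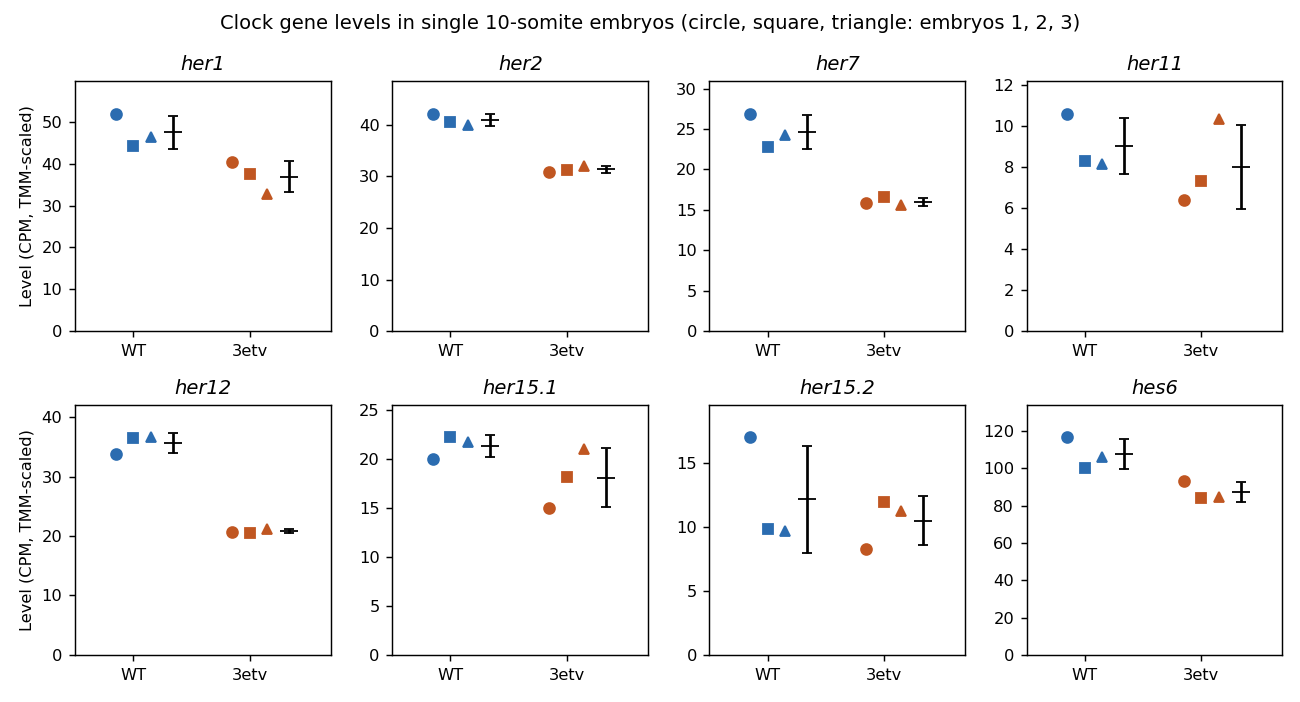
Level of each clock gene in CPM (vertical axes, from 0) in 3 WT embryos (blue) and 3 3etv embryos (orange), with circle, square and triangle for embryos 1, 2 and 3 of a group and black bars for the mean and SD of 3 embryos. For her1, her2, her7, her12 and hes6 each 3etv embryo sits below each WT embryo, and for her11, her15.1 and her15.2 the groups overlap.

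her1 and her7, which encode the core repressors of the zebrafish oscillator, both fell. her7 (ENSDARG00000017917) was at 26.9, 22.8 and 24.2 CPM in WT embryos 1, 2 and 3 and at 15.8, 16.6 and 15.6 CPM in 3etv embryos 1, 2 and 3. The 3etv embryos formed a tight group well under the lowest WT embryo. The log2 fold change of her7 was -0.62 (edgeR adjusted p 2.93e-04, SE 0.093), which put 3etv at 65.1% of WT (95% interval 56.6% to 74.9%). her1 (ENSDARG00000014722) was at 52.0, 44.2 and 46.4 CPM in WT and at 40.4, 37.6 and 32.9 CPM in 3etv. The gap between the groups was narrow for her1, with the highest 3etv embryo just under the lowest WT embryo. The log2 fold change of her1 was -0.36 (edgeR adjusted p 0.0084, SE 0.090), or 77.9% of WT (95% interval 68.0% to 89.1%).

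The ratio of her7 to her1 counts within an embryo does not depend on library scaling, but uses the same counts as the fold changes above. It was 0.518, 0.515 and 0.522 in WT and 0.393, 0.440 and 0.476 in 3etv, so that her7 was lower relative to her1 in each 3etv embryo. The SD of the ratio was 0.0035 in WT and 0.042 in 3etv (n = 3 each). Counting alone gives the her1 counts a spread of 2.88% of their mean in WT. The WT SD was smaller than this spread would give the ratio, so no spread beyond counting was detectable there. In 3etv, counting alone gives wider spreads, 3.72% of the mean for her1 and 5.65% for her7. The part of counting in the 3etv SD was not tested. Whether the spread of the ratio differs between genotypes was not tested either. An exact two-sided permutation test of the log2 ratio gave p = 0.1, the smallest that 3 against 3 allows, and an adjusted p of 0.133 over the 4 ratios tested.

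hes6 (ENSDARG00000019335) encodes a partner of Her1 in dimers; it is known to be expressed in the tailbud in an FGF-dependent gradient and not to cycle. It was at 116.6, 100.4 and 106.1 CPM in WT and at 93.3, 84.2 and 84.4 CPM in 3etv. Each 3etv embryo was below each WT embryo, with a log2 fold change of -0.30 (edgeR adjusted p 0.0063, SE 0.072). This corresponds to 81.1% of WT (95% interval 72.8% to 90.3%), the smallest fall among the 5 called clock genes.

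her12 and her2 are cyclic repressor genes of the presomitic mesoderm, and both fell with little spread between embryos. her12 (ENSDARG00000032963) had the largest fall of the 8 genes. It was at 33.8, 36.6 and 36.6 CPM in WT and at 20.6, 20.6 and 21.2 CPM in 3etv. The 3 3etv values nearly coincided, and the log2 fold change was -0.78 (edgeR adjusted p 1.28e-05, SE 0.080), or 58.3% of WT (95% interval 51.8% to 65.7%). her2 (ENSDARG00000038205) was at 42.1, 40.6 and 39.9 CPM in WT and at 30.8, 31.1 and 32.0 CPM in 3etv. It also separated the groups cleanly, with a log2 fold change of -0.38 (edgeR adjusted p 0.0014, SE 0.072), or 76.7% of WT (95% interval 68.8% to 85.4%). The ratio of her12 to her2 was 0.802, 0.901 and 0.917 in WT and 0.670, 0.660 and 0.662 in 3etv. The ratio of her12 to her1 was likewise lower in each 3etv embryo, at 0.567 ± 0.070 against 0.755 ± 0.093 (SD, n = 3 each). These ratios use the same counts as the fold changes above, in which her12 fell more than her2 and her1. For each of these ratios the exact two-sided permutation p was 0.1 and its adjusted value 0.133, so the design cannot place either under the threshold.

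her11, her15.1 and her15.2 were lower on average in 3etv but their groups overlapped. her11 (ENSDARG00000002707), a cyclic gene strongest in the anterior presomitic mesoderm and also expressed at the midbrain-hindbrain boundary, was at 10.6, 8.31 and 8.18 CPM in WT and at 6.42, 7.31 and 10.3 CPM in 3etv. The third 3etv embryo was the second highest of all 6. The log2 fold change of her11 was -0.17 (95% interval -0.55 to 0.21, edgeR adjusted p 0.49). It was -0.39 without that embryo (adjusted p 0.098) and -0.034 without the first WT embryo (adjusted p 0.91).

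her15.1 and her15.2 are close copies that lie side by side, and counting can split or drop reads that match both, so that their separate values are uncertain. her15.1 (ENSDARG00000054562) was at 20.1, 22.2 and 21.8 CPM in WT and at 15.04, 18.2 and 21.1 CPM in 3etv. The third 3etv embryo lay within the WT range, and the log2 fold change of -0.24 did not pass (95% interval -0.49 to 0.0068, edgeR adjusted p 0.129). Without that embryo it was -0.36 and passed (adjusted p 0.035). her15.2 (ENSDARG00000054560) was at 17.0, 9.82 and 9.66 CPM in WT and at 8.30, 12.0 and 11.2 CPM in 3etv. The first WT embryo stood apart from the other 5, which overlapped. The log2 fold change was -0.20 (95% interval -0.74 to 0.33, edgeR adjusted p 0.56) and turned to 0.11 without the first WT embryo (adjusted p 0.63).

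In the first WT embryo, her15.2 was high and her15.1 was the lowest of the 3 WT embryos. The ratio of her15.1 to her15.2 was 1.18 there, against 2.26 and 2.25 in the other WT embryos and 1.81, 1.52 and 1.88 in 3etv. The sum of both copies was at 37.1, 32.1 and 31.4 CPM in WT and 23.3, 30.2 and 32.3 CPM in 3etv. Summed before the fit, the copies had a log2 fold change of -0.23 (edgeR adjusted p 0.153, SE 0.114), so that summing did not bring them past the threshold. Reads that aligned to more than 1 place made up 6.38% of all tabulated reads in the first WT embryo and between 5.12% and 5.75% in the other 5, and their part in the ratio was not tested.

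**Figure D2:**
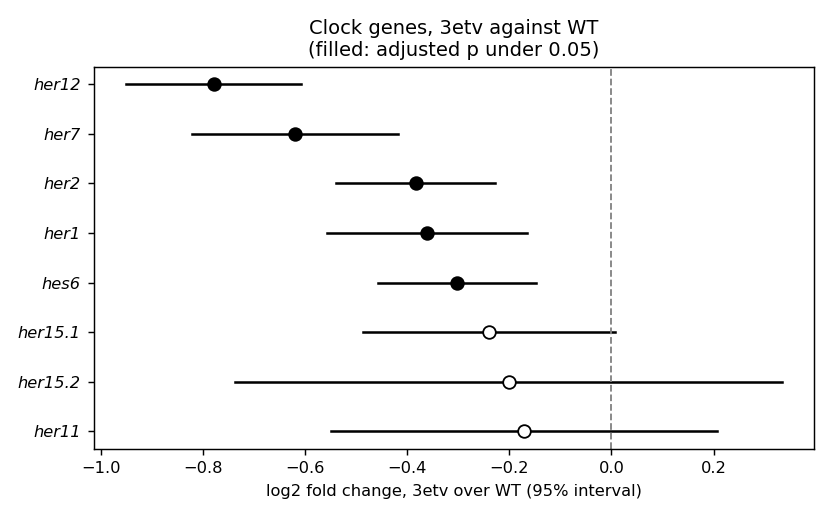
The log2 fold change of each clock gene in 3etv over WT (horizontal axis), with its 95% interval from edgeR's quasi-likelihood fit over 3 embryos per group. her12 (-0.78) and her7 (-0.62) lie farthest from 0, and the intervals of her15.1, her15.2 and her11 cross 0.

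Embryo-to-embryo spread was then described for the clock genes. The coefficient of variation (SD over mean of 3 embryos) had a median over the 8 genes of 8.04% in WT and 8.09% in 3etv, against 9.72% and 10.3% over all tested genes. These medians are not matched for abundance, with which the coefficient varies, and a comparison at like abundance follows below. her2 and her12 were the most even, at 2.75% and 4.57% in WT and 2.08% and 1.76% in 3etv. In 3etv these values were below the spread that counting alone gives for such counts, 4.05% for her2 and 4.97% for her12. The same held for her7 in 3etv, at 3.01% against 5.65%, and for her2 in WT, where counting gives 3.10%. No spread beyond counting was detectable in these cases at this depth. her15.2 in WT (34.5%) and her11 in 3etv (25.5%) were the most uneven, against 5.74% and 8.02% from counting. The coefficient of variation was higher in 3etv than in WT for 3 of the 8 genes, her1, her11 and her15.1, and for 54.1% of all tested genes. With 3 embryos per group the difference in spread between genotypes was not tested.

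To set each gene against others of like abundance, its moderated biological coefficient of variation from edgeR was divided by the trend at that abundance. The ratio was 1.89 for her15.2, higher than for 98.6% of tested genes, and 1.25 for her11. It was 1.07 for her15.1, 1.03 for her1, 0.968 for hes6 and 0.886 for her7. her12 (0.825) and her2 (0.809) were below the trend by the most. The median ratio of the 8 genes was 1.001, against 0.927 over all tested genes, and 4 of the 8 lay above the trend against 33% of all tested genes. As a group, therefore, the clock genes straddled the trend, with her15.2 far above it.

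**Figure D3:**
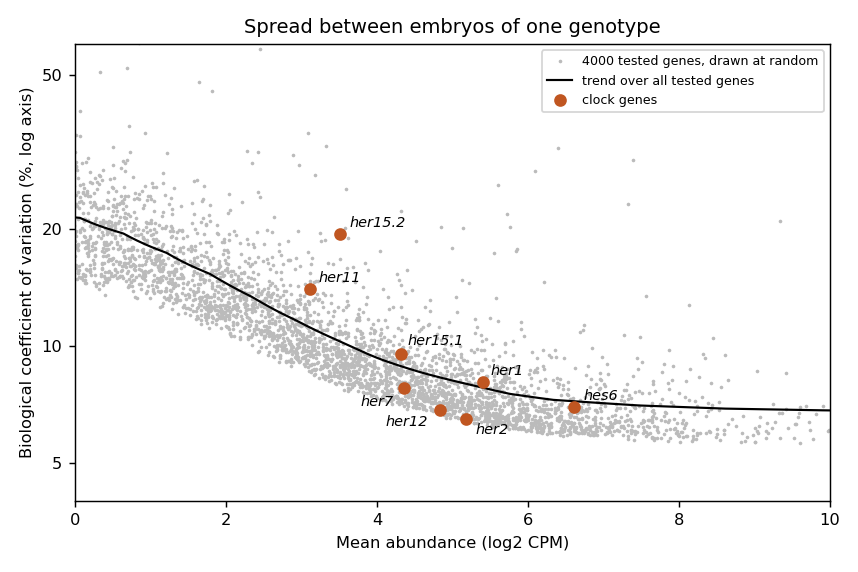
Biological coefficient of variation between embryos of one genotype (vertical axis, percent on a log scale) against mean abundance in log2 CPM, for the clock genes (orange), a random sample of tested genes (grey) and the trend over all tested genes (line). her15.2 (19.4%) stands far above the trend (10.3%), and her2 and her12 lie under it.

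The embryos did not rank alike for all clock genes. In WT, the first embryo was the highest for 6 of the 8 genes and the lowest for her12 and her15.1. her1, her7 and hes6 shared one order in WT: the first embryo was at 109.4%, 109.2% and 108.3% of the WT mean, the third at 97.6%, 98.3% and 98.5%, and the second at 93.0%, 92.5% and 93.2%. The posterior presomitic mesoderm and tailbud list holds transcription factors and signals such as msgn1, tbx6 and tbxta. It also holds the retinoic acid enzyme genes aldh1a2 and cyp26a1. The summed level of the list had the same order in WT, at 106.0%, 101.0% and 93.0% of its WT mean. In 3etv, her1 alone of the 8 followed the order of that sum. However, the spread of her2, her7 and her12 in 3etv, and of her2 in WT, was below counting, so counting alone can set those orders. For hes6, 3etv embryos 2 and 3 were at 78.2% and 78.4% of the WT mean, with a counting spread of 2.43%. In 3etv her1 was at 85.0%, 79.2% and 69.2% of the WT mean in embryos 1, 2 and 3, while her11 and her15.1 ran the other way, at 71.1%, 80.9% and 114.3% and at 70.5%, 85.3% and 98.6%. These orders describe 3 embryos per group and were not tested.

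**Figure D4:**
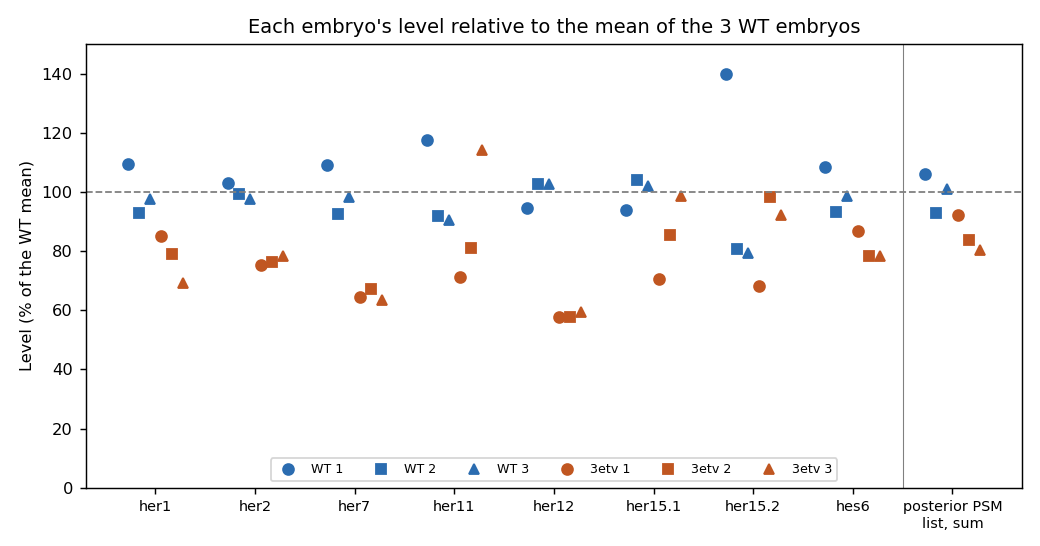
Level of each clock gene, and of the summed posterior presomitic mesoderm (PSM) list, in each embryo as percent of the mean of the 3 WT embryos (vertical axis; blue WT, orange 3etv). her12 lies between 57.7% and 59.5% in 3etv, her15.2 reaches 139.8% in the first WT embryo, and her11 reaches 114.3% in the third 3etv embryo.

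The fall of the clock genes was set beside the summed level of genes listed for the posterior presomitic mesoderm and tailbud. Summed over the 8 genes, of which hes6 contributed the most counts, the level was 298.9 ± 17.9 CPM in WT and 229.0 ± 1.55 CPM in 3etv (SD, n = 3 each), or 76.6% of WT. The 3etv sums rest on 4141 to 4948 counts, and their SD was smaller than counting alone would give. No spread beyond counting was thus detectable for the sum in 3etv, and the difference in spread was not tested. The posterior presomitic mesoderm and tailbud list summed to between 932 and 1063 CPM in WT and between 806 and 923 CPM in 3etv, or 85.4% of WT. cdx4 and tbx6 contributed the most to this sum, which does not measure the amount of tissue. Of the 16 entries of the list 13 were tested, and both wnt8a entries and 1 evx1 entry had no counts in any embryo. The clock genes are not in this list. As a percentage of its sum, they were at 30.0%, 30.6% and 28.9% in WT and 25.0%, 27.1% and 28.4% in 3etv. The highest 3etv embryo was thus just under the lowest WT embryo. Of single genes of the list, only msgn1, tbx6, tbx16l and tbx16 were tried as reference, and the answer depended on which was used. tbxta, which rose in 3etv, was not among them. Against msgn1, which acts in presomitic cells, the summed clock genes were at 140.5% of the WT ratio, with each 3etv embryo above each WT embryo. Against the T-box genes tbx6 and tbx16l the ratio was at 100.5% and 103.6% of WT, with overlap between the groups, and against tbx16 it was at 81.9%, with each 3etv embryo below each WT embryo. The part of tissue amount in the fall of the clock genes was not tested.

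Genes of the segment boundary and somite fell along with the clock genes. Of 18 tested, 14 fell and 0 rose, with a median log2 fold change of -0.62. That was 77.8% called, against 31.3% of all tested genes. ripply1, which ends the segmentation program in the forming somite, had a log2 fold change of -0.81, uncx, a posterior somite gene, one of -0.95 and myf5, a muscle determination factor, one of -0.58 (edgeR adjusted p 4.31e-05, 2.10e-04 and 9.34e-04). The list summed to between 1212 and 1260 CPM in WT and between 890 and 1041 CPM in 3etv. efnb2a, epha4a and meox1 contributed the most to this sum, which does not measure the amount of tissue. Their log2 fold changes were -0.28, 0.13 and -0.65, and epha4a did not pass. Relative to the sum the clock genes were at 99.1% of the WT ratio, and the groups overlapped. That value depends on the most abundant genes of the list, and single genes of it were not tried as reference.

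Of 13 tested genes of the posterior presomitic mesoderm and tailbud, 4 fell and 1 rose, with a median of -0.084. That was 38.5% called, against 31.3% of all tested genes. msgn1, tbx16l and cdx4, which act in posterior mesoderm and tail formation, had log2 fold changes of -0.87, -0.42 and -0.28 (edgeR adjusted p 9.21e-04, 0.0017 and 0.0040). tbxta, the notochord and tailbud T-box factor, rose by 0.35 (adjusted p 0.029). Without the third WT embryo or the second 3etv embryo, 3 genes of this list were called.

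Within the Delta and Notch pathway, which couples the oscillators of neighbouring cells, 7 of 27 tested genes fell, 3 rose and 17 did not pass. That was 37% called, against 31.3% of all tested genes. The cyclic ligand gene dlc was at 171.5, 148.3 and 143.3 CPM in WT and at 102.5, 85.9 and 92.5 CPM in 3etv, with no overlap. Its log2 fold change of -0.72 (edgeR adjusted p 3.54e-05, SE 0.082) lay between those of her12 and her7. The ligand genes dld and jag1b also fell, by 0.39 and 0.50 on the log2 scale (adjusted p 3.46e-04 and 3.68e-04). The rises included adam10a, whose product cleaves Notch, and nrarpb, a Notch feedback gene, with log2 fold changes of 0.28 and 0.22 (adjusted p 0.0031 and 0.048). The related gene nrarpa, named after its values were seen, went the other way, from a mean of 232.9 CPM in WT to 196.1 CPM in 3etv. Its log2 fold change was -0.25 (edgeR adjusted p 0.018). The median of the pathway was -0.067, and 6 genes were called without the second 3etv embryo.

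Other Hairy, Enhancer-of-split and Hey genes, most of which act in the nervous system or vessels, had 3 of 14 tested genes lower and 0 higher. That was 21.4% called, against 31.3% of all tested genes. Each call was lower, and 15.4% of all tested genes were called as lower. Whether these family members differ from the clock genes was not tested. hey1 was at 75.1, 59.5 and 68.6 CPM in WT and at 40.4, 29.9 and 44.2 CPM in 3etv, a log2 fold change of -0.83 (edgeR adjusted p 0.0017, SE 0.138). her8a fell by 0.44 (adjusted p 5.71e-04), and her8.2, at 0.910 ± 0.139 CPM in WT and 0.312 ± 0.104 in 3etv (SD, n = 3 each), fell by 1.54 on the log2 scale (adjusted p 0.010). her9, at -0.0070, and the 4 her4 entries tested, which are close copies of each other and lie beside her12, were among the 11 that did not pass. The median over the 14 genes was -0.30, and 5 were called without the third 3etv embryo.

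In the Groucho corepressor family, 0 of 6 tested genes were lower and 1 was higher, or 16.7% called against 31.3% of all tested genes. Of all tested genes, 15.9% were called as higher. The gene called was the short family member tle5 (log2 fold change 0.64, edgeR adjusted p 0.017). Its level was low, at 2.76 ± 0.25 CPM in WT and 4.27 ± 0.40 in 3etv (SD, n = 3 each). The count of Groucho genes called was 0 without the second WT or the second 3etv embryo and 2 without the first WT or the first 3etv embryo. Of 13 genes listed for neural progenitors and neurons, 4 fell and 0 rose, with a median of -0.12. That was 30.8% called, against 31.3% of all tested genes. All of these calls were lower, and 15.4% of all tested genes were called as lower. sox3 had a log2 fold change of -0.35, ascl1a one of -0.67 and elavl3 one of -0.20 (edgeR adjusted p 7.51e-04, 0.0073 and 0.014), and 2 were called without the first 3etv embryo. The neural list summed to between 1246 and 1324 CPM in WT and between 1165 and 1252 CPM in 3etv, with overlap. As a percentage of that sum, the clock genes were at 24.1%, 21.8% and 23.5% in WT and at 19.1%, 19.5% and 18.3% in 3etv, so that each 3etv embryo was below each WT embryo.

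**Figure D5:**
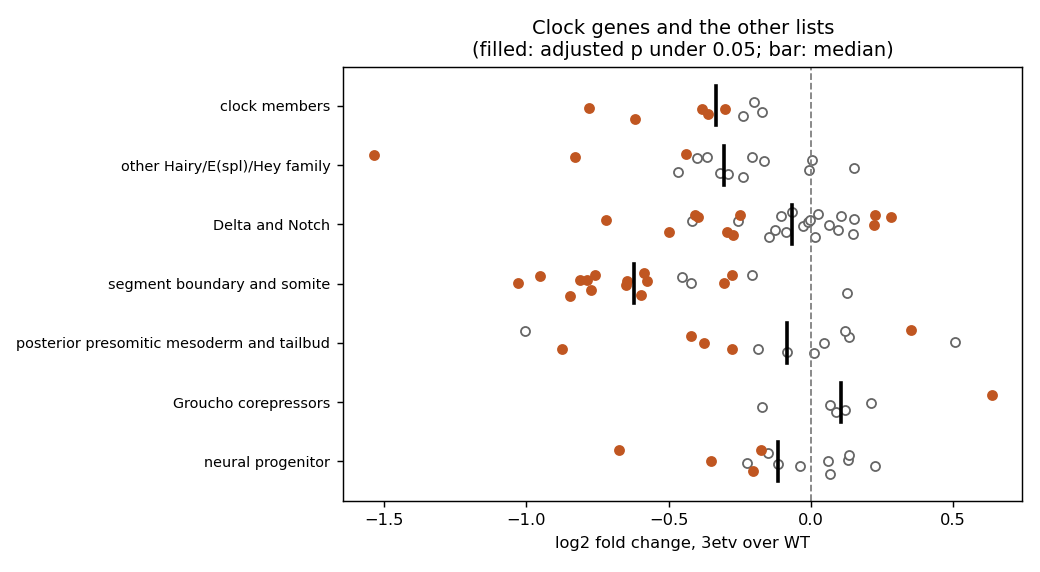
The log2 fold change in 3etv over WT (horizontal axis) of each tested gene in the clock group and the other lists, with filled points for an adjusted p under 0.05 and a bar at each list's median. The clock genes (median -0.33) all lie below 0, and the segment boundary and somite list has the lowest median (-0.62).

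The genes with the most similar profiles were found from log2 CPM in the 6 embryos, centred on the WT mean, by the root-mean-square difference from each clock gene among 9182 other genes with a mean of at least 10 CPM. For her12 these were fbxl6 (0.056), rspo3 (0.061) and gfap (0.066), against a median of 0.55 over all genes compared. The nearest genes lie below the median because they were selected as the smallest of 9182 differences, and likeness was not tested. For her7 they were cux1a (0.060), rnd1b (0.062) and hoxb7a (0.064), and for her1 abcf3 (0.036), taf5l (0.043) and foxc1a (0.045). The closest to her2 was tagln3b (0.026), and cdx4 (0.035) was among the 3 closest to hes6. her15.2 had no close match, with dgcr2 nearest at 0.142. No other clock gene could appear here, since all 8 were left out of the search.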

How the data were processed

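Poly-A, strand-specific libraries were made from single frozen embryos, per the labels' protocols. The authors deposited raw counts per Ensembl gene; STAR, HTSeq and the build GRCz11 are named in the submitters' processing notes, while versions, annotation release and strand setting are not given in the sources used here. Column names in the header line equal the sample titles, but a space replaces 1 tab, so columns were taken by the order of those names. The 5 summary entries were left out of the fit; reads assigned to no gene made up between 52.8% and 53.6% of the table.

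Testing used edgeR 4.0.16 under R 4.3.3 (filterByExpr, TMM, robust quasi-likelihood, genotype as the sole term), with Benjamini-Hochberg adjustment over 18533 genes. The scripts were tested on simulated data. Standard errors are the absolute log2 fold change over the square root of F, and intervals use the fit's degrees of freedom. Log2 CPM used a prior count of 2. Counts of replicate libraries differed beyond sampling noise (chi-square over its degrees of freedom at least 3.60 in each pair), so none was merged. Counting spread is the inverse square root of the mean count and covers counting error only.

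The members and lists were chosen with earlier results of these data known. All 8 clock genes are named, with up to 3 called genes in each direction per list and genes from the 3 most similar profiles per clock gene; 1 listed gene is not reported here. The list symbols her4.5, hes2.3, maml2 and tle1 matched no entry. RefSeq's GRCz12tu gene list was used only for gene order; all 8 symbols matched.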

Additional observations from a re-analysis of the deposited data

How the results depend on the processing

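Alternatives were RLE and upper-quartile scaling, DESeq2 1.42.0, limma voom 3.58.1, no low-count filter, a mean of at least 50 counts, an adjusted p under 0.01, each embryo left out, and the replicate number as a block. The calls of her1, her2, her7, her12 and hes6 held in all 14 alternatives each, with log2 fold changes from -0.42 to -0.28, -0.40 to -0.36, -0.68 to -0.55, -0.82 to -0.76 and -0.35 to -0.24. Without 1 embryo, her15.1 ranged from -0.36, where it passed, to -0.12, and her15.2 from -0.34 to 0.11, reversed without the first WT embryo. Over all genes, 5801 were called, and 3460 at an adjusted p under 0.01.

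At that threshold 5 Delta and Notch, 3 posterior mesoderm, 0 Groucho and 2 neural genes were called, against 10, 5, 1 and 4; without a low-count filter 2 Groucho genes were. Leaving out 1 embryo gave between 2 and 5 calls for the other Her family, 6 and 10 for Delta and Notch, 3 and 7 for posterior mesoderm, 0 and 2 for Groucho and 2 and 6 for neural genes. With the replicate block, 4524 genes, 5 clock genes and 2 neural genes were called. Deviations of same-numbered embryos correlated at -0.087 on average across genes (from -0.13 to -0.030), which gives no ground to treat them as pairs. With RLE scaling, the 16 coefficients of variation moved by at most 0.126 percentage points. Where a count moved, the cause was not tested beyond the stricter threshold or the fewer embryos. Among the clock genes, her11 and the her15 copies have the widest intervals and also the fewest counts. her15.2 has more counts than her11 but a larger SE (0.235 against 0.175), and the cause of the widths was not tested.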

Other observations

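The positions of the clock genes were looked up in RefSeq's gene order for GRCz12tu after their values were seen. her1 and her7 are next to each other, her2, her15.1 and her15.2 lie in a row, and her12 lies beside the her4 copies. Up to 2 tested genes with unique symbols on each side, within 5 protein-coding genes, gave 19 neighbours outside the clock group. Of these, 1 fell, 3 rose and 15 did not pass. Over all tested genes 15.4% were called as lower and 15.9% as higher. usp39, near her7, had a log2 fold change of -0.19 (edgeR adjusted p 0.033). The rises were h1m, the maternal linker histone gene near her1 (log2 fold change 1.02, adjusted p 0.0089), si:ch211-283h6.4, next to her7 (0.47, adjusted p 0.0088), and ubr4, near her12 (0.24, adjusted p 0.030). The genes on either side of hes6, itm2cb and the circadian repressor gene per2, did not pass (log2 fold changes -0.076 and 0.21, adjusted p 0.58 and 0.21). her5, a midbrain-hindbrain repressor gene next to her11, was also not called (-0.24, adjusted p 0.21).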
